A study of Mus musculus with 6 samples.

Results

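A set of 9 named genes of the stefin, cystatin and WFDC families of protease inhibitors were followed through a dendritic cell culture of mouse bone marrow. They are the rows of the expression table whose symbol is Cstb, Cst3, Stfa1, Stfa2, Stfa3, Stfa2l1, BC100530, Wfdc17 or Slpi, and all 9 were found among 21761 genes. They were picked from the measured values themselves, because stefins were highest at day 4 and Wfdc17 at day 7, so their levels are given here as a description without p-values.

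Stefins and cystatins share a fold that plugs the active site of papain-like cysteine proteases, the cathepsins of lysosomes. Stefins lack a signal peptide and act in the cytosol, whereas cystatin C, encoded by Cst3, is secreted. WFDC proteins carry the whey acidic protein domain, held by disulphide bonds between cysteines, and Slpi is the family's well-known inhibitor of neutrophil elastase and cathepsin G. In antigen-presenting cells cathepsins cut the invariant chain and antigens for loading on MHC class II, and in neutrophils the serine proteases are packed in granules.

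RNA-seq was run on 6 libraries of cells from male C57BL/6J mice. At day 0, 2 libraries (II and III) came from bone marrow. At day 4, 2 libraries (I and II) came from cells titled CMP. At day 7, 2 libraries (III and IV) came from cells titled BMDC, for dendritic cells derived from marrow. The culture medium held supernatant of a transfected SP2/0 line that secretes Flt3L, the ligand that drives dendritic cell development. Per the labels every live cell was taken at days 4 and 7, so each library is a mixture of cell types, in which fewer cells of a type and less RNA per cell cannot be told apart. The labels do not say that libraries of a day came from separate animals or cultures, so the spread between them may be technical.

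The day 0 libraries held 322837 and 157797 reads, those of day 4 held 1365635 and 3852628, and those of day 7 held 16149088 and 10951745, so depth and day cannot be told apart. For a gene of 1 kb, 3 reads were worth 9.29 and 19.01 RPKM (reads divided by the length of a gene's exons and by the library's total) on day 0, 2.20 and 0.779 RPKM on day 4 and 0.186 and 0.274 RPKM on day 7. As a background, 1458 odorant, vomeronasal and trace amine receptor genes, taken here as genes that marrow cells do not rely on, had a pooled level of 8.74 and 8.26 RPKM on day 0, 4.36 and 0.852 RPKM on day 4 and 0.0223 and 0.0241 RPKM on day 7. The sum of 6 listed erythroid genes was 78904 and 39284 RPKM on day 0 and 3712 and 3999 RPKM on day 4. On day 7 it was 23.3 and 44.3 RPKM. For day 4 against day 0, limma called 6 of 6 lower, and their part in the levels below was not tested. Markers went against the day 4 title in part. Summed over 10 listed neutrophil genes the level was 62544 and 8198 RPKM on day 0, 49129 and 35099 RPKM on day 4 and 201 and 206 RPKM on day 7, and limma called 10 of 10 lower at day 7 than at day 4. The sum of 6 listed early progenitor genes was 1924 and 426 RPKM on day 0 and 494 and 699 RPKM on day 4. On day 7 it was 37.1 and 76.3 RPKM. Of these 6, limma called 0 for day 4 against day 0, and 3 lower and 1 higher for day 7 against day 4. Among them Kit averaged 13.2 RPKM at day 4 and 15.8 RPKM at day 0. At day 7 the summed level of macrophage genes was 12179 and 12968 RPKM, against 230 and 142 RPKM at day 4, and 10 of 10 were called higher. That of 10 dendritic cell genes was 697 and 807 RPKM at day 7, against 90.8 and 31.3 RPKM at day 4, but Bst2, which other cells also use, made up 613 and 714 RPKM of it. The other 9 summed to 83.6 and 93.6 RPKM at day 7, against 59.3 and 23.8 RPKM at day 4. Only Bst2 and Irf8 of the 10 were called higher, the list's median log2 difference was -0.27, and Zbtb46, a defining gene of conventional dendritic cells, averaged 0.0285 RPKM at day 7 and 1.85 RPKM at day 4. The days are therefore called by number below.

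The 45 coding bases shown here hold a part of each stefin or cystatin that enters the protease. They also show how alike the stefin genes are where reads have to be told apart. In capitals are the 5 codons of the loop known in this family as Q-x-V-x-G, found in frame by those residues' codons in the coding sequences of GENCODE M21 (GRCm38).
Cstb: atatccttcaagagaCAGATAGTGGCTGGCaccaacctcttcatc
Cst3: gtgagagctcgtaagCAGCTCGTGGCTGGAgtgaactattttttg
Stfa1: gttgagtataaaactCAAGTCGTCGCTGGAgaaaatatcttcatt
BC100530: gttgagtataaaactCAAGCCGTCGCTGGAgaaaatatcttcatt
Stfa2: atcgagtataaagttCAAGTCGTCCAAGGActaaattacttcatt
Stfa3: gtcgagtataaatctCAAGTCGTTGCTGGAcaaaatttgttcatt

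Stfa2l1 has the same 45 bases as Stfa2. Between Stfa1 and BC100530 the stretch differs at 1 base, T140C, which gives the Stfa1 base, its place counted from 1 at the first base of the coding sequence, and the BC100530 base. Over their aligned coding bases Stfa1 and BC100530 were 97.9% identical (285 of 291) and Stfa2 and Stfa2l1 96.4% identical (298 of 309). Cstb, which lies on chromosome 10, was 64.7% (BC117090) to 72.8% identical to the chromosome 16 genes compared. Of all stretches of 50 coding bases, a length chosen here because the read length was not given in the sources used here, 65.3% of those of BC100530, 27.7% of Stfa2l1, 26.0% of Stfa1 and 23.5% of Stfa2 occur in another gene as well. For Stfa3, Cstb, Cst3, Wfdc17 and Slpi that share was 0. Values of Stfa1, BC100530, Stfa2 and Stfa2l1 are therefore uncertain as single genes, because the counting of shared reads is not given in the sources used here.

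**Figure D1:**
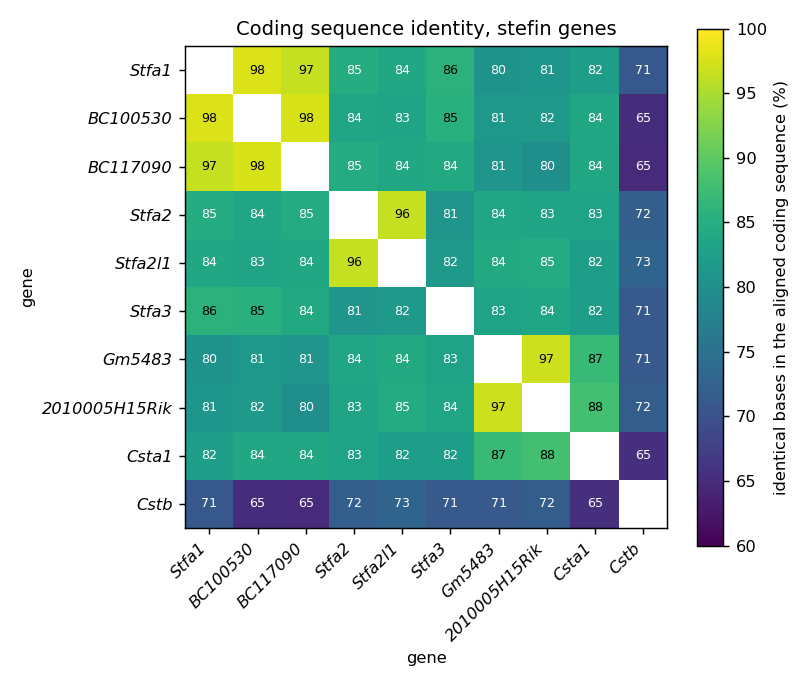
Percent identity of aligned coding bases between the stefin and cystatin genes, from GENCODE M21, with each cell of the grid giving one pair. The brightest cells are Stfa1 with BC100530 (97.9%), BC100530 with BC117090 (97.6%) and Gm5483 with 2010005H15Rik (96.9%). Next are Stfa1 with BC117090 (96.5%) and Stfa2 with Stfa2l1 (96.4%). Cstb stays at or below 72.8% with each gene of the chromosome 16 cluster.

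The stefin A genes lie together on chromosome 16. In RefSeq (GRCm38.p6) Stfa2l1, Stfa1, BC100530 (listed there as Cstdc5), Stfa2 and Stfa3 fall within a run of 20 annotated genes, with the related genes Gm5483, Gm5416, 2010005H15Rik and BC117090 between them. RefSeq promoter sequences were matched for 8 of the 9 genes, all but Cstb. The 250 bases before the start are given for 3 of the stefin A genes, because these genes share a day of highest level. The places are chr16:36276898-36277147 on the plus strand for Stfa1, chr16:36367571-36367820 on the minus strand for BC100530 and chr16:36156561-36156810 on the plus strand for Stfa2l1. Capitals mark ATTATTGGCACAGAG, TTGCNNAA (the core word of C/EBP factors, which act in granulocyte development) and GAGGAAG (the core word of PU.1), on either strand.
Stfa1: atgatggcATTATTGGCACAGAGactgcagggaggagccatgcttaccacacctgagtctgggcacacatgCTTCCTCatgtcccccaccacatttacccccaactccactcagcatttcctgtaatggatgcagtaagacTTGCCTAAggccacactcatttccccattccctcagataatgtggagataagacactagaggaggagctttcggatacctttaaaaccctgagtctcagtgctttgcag
BC100530: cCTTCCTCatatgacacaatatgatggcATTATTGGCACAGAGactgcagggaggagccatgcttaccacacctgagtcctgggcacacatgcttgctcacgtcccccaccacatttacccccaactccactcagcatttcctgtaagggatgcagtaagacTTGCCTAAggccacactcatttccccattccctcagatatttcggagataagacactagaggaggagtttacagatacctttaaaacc
Stfa2l1: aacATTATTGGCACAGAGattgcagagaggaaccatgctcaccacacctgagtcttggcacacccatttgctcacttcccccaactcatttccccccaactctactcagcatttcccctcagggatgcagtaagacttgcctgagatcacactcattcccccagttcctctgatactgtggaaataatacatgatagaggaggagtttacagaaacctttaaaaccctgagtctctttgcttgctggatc

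The word ATTATTGGCACAGAG was chosen after the sequences were seen, as the longest exact word common to the 5 stefin A promoters. Its presence in all 5 was therefore fixed by that choice and is no finding. In pairs these promoters were 82.9% to 96.1% identical. It occurs in 5 of 27025 RefSeq promoters of the same length (0.0185%), those of Stfa1, Stfa2, Stfa3, Stfa2l1 and BC100530, starting 222 to 247 bases before the start. TTGCNNAA was present in 3 of the 8 promoters (Stfa1, BC100530 and Slpi) and in 9.55% of all promoters. GAGGAAG was present in 3 (Stfa1, BC100530 and Wfdc17) and in 10.4% of all. TATAAA, present in 12.97% of all promoters, and TGANTCA, the AP-1 word present in 6.87%, were found in none of the 8. None of the matches overlapped another in these 8 promoters. Promoters of Stfa1 and BC100530 were 96.1% identical over 229 aligned bases and those of Stfa2 and Stfa2l1 92.3% identical over 246, so these matches are not independent.

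Cstb encodes stefin B (cystatin B), the widely used cytosolic stefin, whose human counterpart is mutated in a progressive myoclonus epilepsy. The day 0 libraries had 20.6 and 0 RPKM of it (4 and 0 reads), those of day 4 had 225 and 348 RPKM, and those of day 7 had 1926 and 1965 RPKM. The days did not overlap, and Cstb, against the wording by which stefins were picked, was highest at day 7, where it ranked 25 and 27 among all genes. At day 7 it averaged 1945 ± 27.5 RPKM, against 286.5 ± 86.9 RPKM at day 4 (SD, n = 2 each). Over pooled reads the day 7 level was 6.15 times that of day 4 (exact 95% interval 5.77 to 6.56), and the day 4 level was 22.8 times that of day 0 (8.89 to 84.0), with 4 reads at day 0. The receptor background predicts 1.70 and 0.785 reads in the day 0 libraries, so the fold over day 0 stands on a level near background. All intervals given for reads cover counting error only. The fitted log2 differences on the log2(RPKM + 1) scale were 2.79 ± 1.17 (SE) for day 7 against day 4 and 5.92 ± 1.17 for day 4 against day 0. With day 0 library II left out the second was 8.13, and with library III left out it was 3.70.

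Cst3 encodes cystatin C, the secreted inhibitor that binds cathepsins B, L, S and H. It had 200.4 and 111 RPKM on day 0, 209 and 215 RPKM on day 4 and 2435 and 2864 RPKM on day 7, when it ranked 15 and 13 of all genes. The day 4 libraries lay just above the higher of the day 0 libraries, and both day 7 libraries lay far above all of these. Pooled reads gave a ratio of 12.2 for day 7 against day 4 (11.4 to 13.1), and of 1.25 for day 4 against day 0, with an interval of 0.962 to 1.65, or 1.92 without day 0 library II. The fitted log2 difference was 3.63 ± 0.54 for day 7 against day 4 and 0.51 ± 0.54 for day 4 against day 0. With quantile normalization the second was -0.24.

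Stfa1 and its near copy BC100530, stefin A genes of the mouse cluster that stands where humans have the gene CSTA, were highest at day 4. Stfa1 had 0 and 15.2 RPKM at day 0, where the second value is 1 read, 19.3 and 80.1 RPKM at day 4 (11 and 129 reads), and 0 reads in both day 7 libraries. BC100530 had 7.02 and 0 RPKM at day 0, again 1 read, 14.9 and 55.3 RPKM at day 4 (9 and 94 reads), and 0.140 and 0 RPKM at day 7, where 1 read was found. Both genes were above their day 0 and day 7 values in each day 4 library, but in library I the gap to day 0 was within counting error for both. The day 4 libraries differed: library II was 4.16 times library I for Stfa1 and 3.70 times for BC100530. The exact 95% counting intervals did not meet, at 66.9 to 95.2 RPKM in library II and 9.62 to 34.5 RPKM in library I for Stfa1. Against day 4, the day 7 level of Stfa1 was at least 242-fold lower, set by a floor of 3 reads over both day 7 libraries. That bound was 72.8 without day 4 library II, 97.9 without day 7 library III and 144 without library IV. For BC100530 the pooled day 4 level was 535 times that of day 7 (93.9 to 21331), with 1 read at day 7, and 179 times without day 4 library II or 319 times without day 7 library IV. At the day 0 depth the first step could be sized only roughly: the day 4 level over that of day 0 was 12.9 for Stfa1, with an interval of 2.28 to 513, and 3.87 without day 4 library II or 4.23 without day 0 library II.

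Stfa2l1 and Stfa2 form the other near-identical pair. Stfa2l1 had 7.48 and 0 RPKM at day 0 (1 read in all), 37.1 and 18.8 RPKM at day 4 (21 and 30 reads) and 0 reads in both day 7 libraries. Here library I was the higher at day 4, by 1.97 times, opposite to Stfa1 and BC100530, and the counting intervals overlapped (23.0 to 56.8 RPKM in library I and 12.7 to 26.9 RPKM in library II). The pooled receptor background predicts 2.47 and 1.36 reads of Stfa2l1 at day 4. However, Olfr1112, an odorant receptor gene of that background list, had 36.7 and 10.3 RPKM at day 4 and 0 RPKM in both day 7 libraries. In library I Stfa2l1 was thus no higher than this single background gene by more than counting error. Stfa2 had 0 reads at day 0, 6.92 and 6.75 RPKM at day 4 (4 and 11 reads) and 0 reads at day 7. Against day 4, day 7 was at least 88.3-fold lower for Stfa2l1 and at least 26.0-fold lower for Stfa2, from the same floor. Without day 7 library III or IV the bounds were 35.7 and 52.6 for Stfa2l1 and 10.5 and 15.5 for Stfa2, and without day 4 library II that of Stfa2l1 was 139. Between day 4 and day 0 no fold is given for Stfa2, because at day 0 the floor of 3 reads was 22.0 and 44.9 RPKM, above both day 4 levels.

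Stfa3 was at the edge of detection. It had 0 reads in the day 0 and day 7 libraries and 1.78 and 3.15 RPKM at day 4, which is 1 and 5 reads. The receptor background predicts 2.45 and 1.35 reads for a gene of its length in those libraries, so the value of library I is below that background. Summed by reads, the 5 stefin A genes had 46 and 269 reads at day 4, against backgrounds of 12.6 and 6.92 reads. At day 0 they had 2 and 1 reads, below backgrounds of 5.95 and 2.75 reads, and at day 7 they had 1 and 0 reads, near backgrounds of 0.761 and 0.556. Stefin A RNA was thus not detectable above background at day 0 at this depth. Summed neutrophil markers were also far higher at day 4 than at day 7, as given above, and their part in the stefin A result was not tested.

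**Figure D2:**
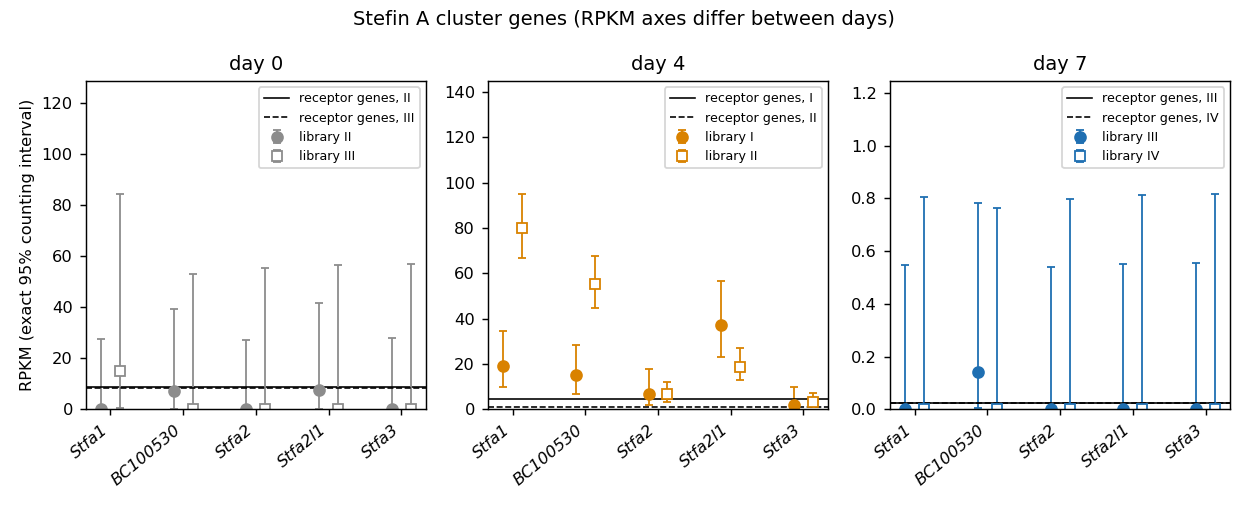
RPKM of the 5 stefin A genes in each library, with exact 95% counting intervals, 1 panel a day (the RPKM axes differ between panels), filled and open symbols for the libraries of a day, and lines at the pooled level of the receptor genes in each. In the day 4 panel Stfa1 and BC100530 are higher in library II (80.1 and 55.3 RPKM) and Stfa2l1 in library I (37.1 RPKM), while at day 0 and day 7 no gene stands on more than 1 read.

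Slpi encodes the secretory leukocyte protease inhibitor, which protects tissue from neutrophil elastase. It had 100.2 and 33.4 RPKM on day 0, 579.6 and 272 RPKM on day 4 and 35.9 and 32.8 RPKM on day 7. Both day 4 libraries lay above all others, 2.13-fold apart, and the day 0 and day 7 libraries overlapped. The pooled day 4 level was 10.2 times that of day 7 (9.50 to 10.9) and 4.50 times that of day 0 (3.40 to 6.08). Without day 4 library II these were 16.7 and 7.41, and without day 0 library II the second was 10.6. Fitted log2 differences were -3.50 ± 0.59 for day 7 against day 4 and 2.75 ± 0.59 for day 4 against day 0. With day 0 library II left out the second was 3.53, and with library III left out it was 1.97. Slpi was still well above background at day 7, with 770 and 477 reads where the receptor genes predict 0.480 and 0.350. The summed level of the neutrophil serine proteases Elane, Ctsg and Prtn3 was 3414 and 357 RPKM on day 0, 987 and 1336 RPKM on day 4 and 0.538 and 0 RPKM on day 7. Slpi RNA was thus present at day 7 where these were nearly absent. The 10 neutrophil markers, all called lower at day 7 than at day 4 with a median log2 difference of -8.91, moved with Slpi, and their part in its level was not tested.

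Wfdc17, also known as Amwap, encodes a small WAP domain protein described in activated mouse macrophages and microglia. Its 76 codons hold 9 for cysteine, against 17 of 131 in Slpi. Wfdc17 had 26.4 and 13.5 RPKM at day 0 (4 and 1 reads), 12.5 and 3.87 RPKM at day 4 (8 and 7 reads), and 1125 and 927 RPKM at day 7. The day 7 libraries stood far above the rest, at ranks 62 and 94 of all genes. Over pooled reads day 7 was 171 times day 4 (103 to 305), and the fitted log2 difference was 6.98 ± 0.55. The ratio was 269.8 without day 4 library I and 83.7 without library II, and the fitted difference 7.71 and 6.24. Day 4 was 0.276 times day 0, but the interval of 0.095 to 0.972 rests on 5 reads at day 0, where the background predicts 1.32 and 0.611. With any 1 of these 4 libraries left out, the day 4 level stayed below that of day 0, by 1.78 to 5.73 times. The summed macrophage markers given above moved with Wfdc17, Cst3 and Cstb at day 7, and their part in these levels was not tested.

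**Figure D3:**
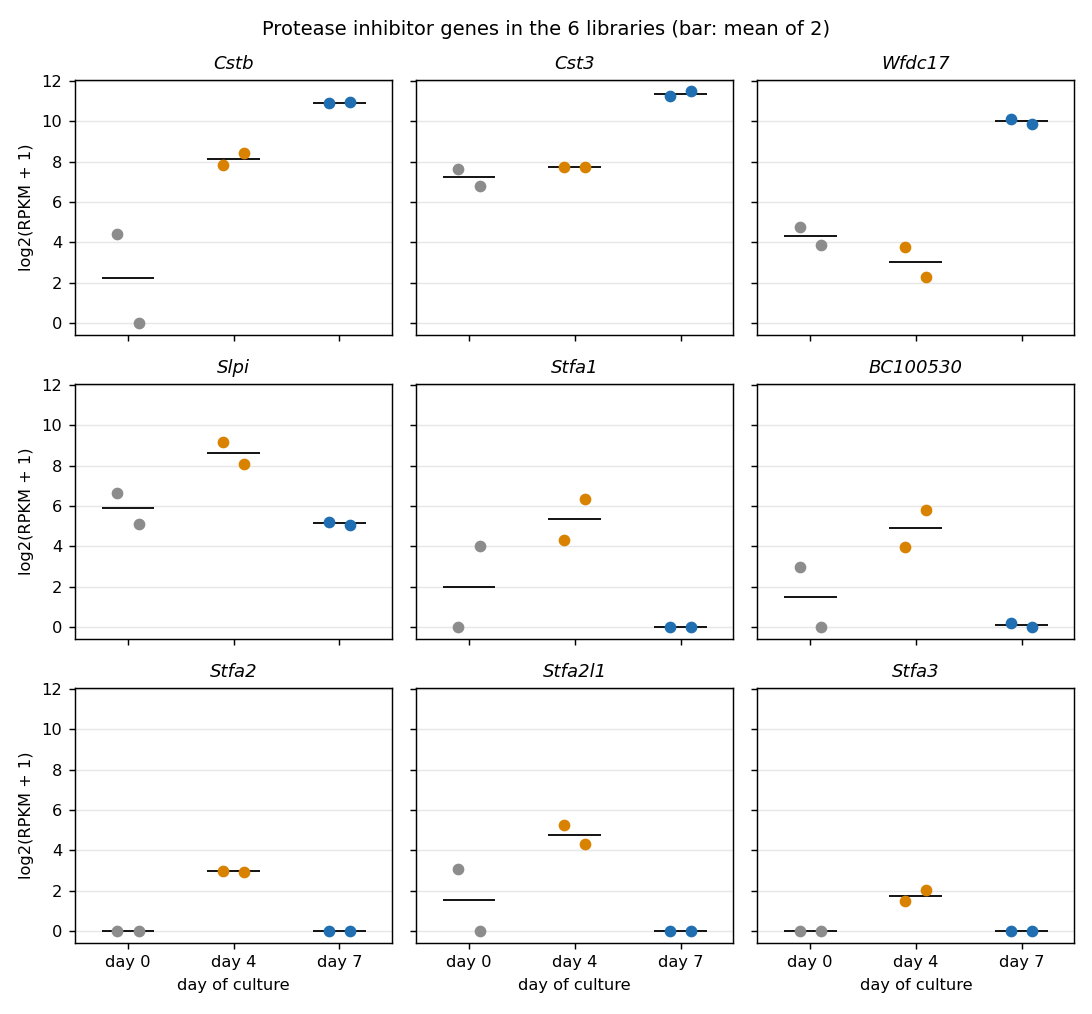
RPKM of the 9 inhibitor genes in the 6 libraries, on axes of log2(RPKM + 1), by day of culture, with a point for each library and a bar at the mean of each day. Cstb, Cst3 and Wfdc17 are highest in both day 7 libraries, Slpi and the 5 stefin A genes in both day 4 libraries.

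The make-up of the group therefore differed by day. Summed over the 9 genes the level was 362 and 173 RPKM on day 0, 1106 and 1003 RPKM on day 4 and 5522 and 5788 RPKM on day 7. Cst3 made up 55.3% and 64.1% of that sum at day 0, Slpi 52.4% and 27.1% at day 4 beside 20.3% and 34.7% for Cstb, and Cst3 44.1% and 49.5% at day 7, when Cstb held 34.9% and 34.0% and Wfdc17 20.4% and 16.01%. The stefin A genes reached 7.24% and 16.4% of it at day 4. The order of levels at day 7 was Cst3, Cstb, Wfdc17, Slpi and then the stefin A genes, with no overlap between neighbours down to Slpi. At day 4 Slpi, Cstb and Cst3 could not be put in order, since the libraries of Slpi (579.6 and 272 RPKM) and Cstb (225 and 348 RPKM) overlapped, and Cst3 lay below both at 209 and 215 RPKM by less than the spread of either. Between libraries of a day the median absolute log2 difference over all tested genes was 0.80 at day 0, 0.76 at day 4 and 0.15 at day 7.

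**Figure D4:**
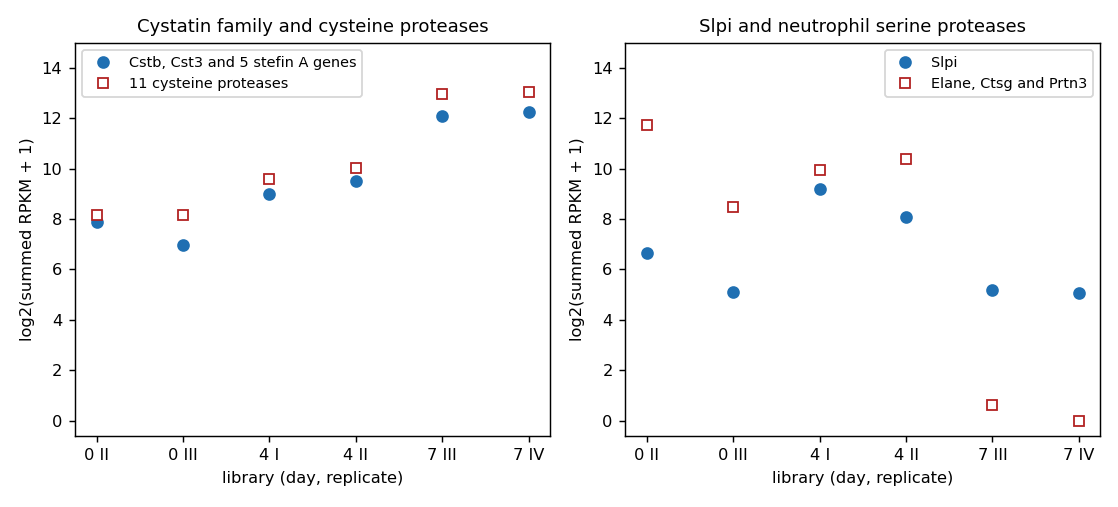
Levels per library as log2(summed RPKM + 1), with the libraries named by day and replicate on the horizontal axis. On the left, Cstb, Cst3 and the 5 stefin A genes (filled) and the 11 cysteine proteases (open) are both highest at day 7, and on the right Slpi (filled) keeps 35.9 and 32.8 RPKM at day 7, where Elane, Ctsg and Prtn3 (open) sum to 0.538 and 0 RPKM.

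All genes were fitted together with limma, and a gene was called at a Benjamini-Hochberg adjusted p under 0.05. Medians over all genes tested were -0.40 for day 4 against day 0, -0.81 for day 7 against day 4 and -1.14 for day 7 against day 0 (log2), and differences are to be read beside these. All 9 genes passed the filter on low values, the stefin A genes through their day 4 values, so the counts that follow only describe the choice of genes. For day 4 against day 0, 3 of 9 were called higher (Cstb, Stfa2 and Slpi), where 3.66% of all 19279 genes were called higher. The call of Stfa2 rests on values of 0 at day 0, where its floor lay above the day 4 levels. None of the 9 was called lower, where 1.92% of all genes were (1 of the 9 at an unadjusted p under 0.05, and 0 with limma voom). For day 7 against day 4, 2 were called higher (Cst3 and Wfdc17) where 5.85% of all genes were, and 5 lower (Stfa1, Stfa2, Stfa2l1, BC100530 and Slpi) where 6.75% were. Cstb was not called there, with a log2 difference of 2.79 ± 1.17. Its SE is estimated over all 3 days, including the day 0 libraries with 20.6 and 0 RPKM. Limma voom, which called far more genes in that comparison, as given below, called 3 of the 9 higher and 6 lower. For day 7 against day 0, 3 were called higher (Cstb, Cst3 and Wfdc17) where 11.3% were, and none lower where 29.3% were (0 at an unadjusted p under 0.05, and 5 with limma voom). Without either day 4 library limma called 0 genes in the 2 comparisons that use day 4 (6597 and 3063 had an unadjusted p under 0.05 for day 4 against day 0 without library I and II, 4017 and 6854 for day 7 against day 4), so every call that involves day 4 rests on both of its libraries. The 3 calls for day 4 against day 0 became 0 with a pseudocount of 0.1 and 1 with quantile normalization or voom, and the 5 lower calls for day 7 against day 4 became 2 with quantile normalization or without day 7 library IV.

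Few of the other cystatins and stefins were called on the log2(RPKM + 1) scale. The 5 listed relatives of the stefin A cluster, mouse genes of the same family, had a median log2 difference of 0.75 for day 4 against day 0 and -2.49 for day 7 against day 4. Limma called 1 of them lower at day 7 than at day 4, BC117090, which had 0 reads at day 7 and 4 and 4 reads at day 4, and 1 lower at day 7 than at day 0, Csta1, with 0 reads at day 7 and 3 and 2 reads at day 0 (log2 difference -2.32 ± 0.58, adjusted p = 0.0197). Gm5483 had 16 and 26 reads at day 4 and 0 reads at day 7. Summed reads of these 5 genes were 34 and 46 at day 4, against backgrounds of 25.9 and 14.3. Of 11 other cystatins tested, limma called 0 in each comparison, with 0 at an unadjusted p under 0.05 in both comparisons that use day 4 and 2 in that of day 7 against day 0. Limma voom, run on the reads, called 0 for day 4 against day 0, but 9 lower for day 7 against day 4 and 10 lower for day 7 against day 0. Of the 11 cystatins tested, Cst7 encodes cystatin F, an inhibitor of cathepsin C in immune cells. Cst7 averaged 12.6 ± 8.78 RPKM at day 0, 13.99 ± 4.04 RPKM at day 4 and 14.6 ± 7.62 RPKM at day 7 (SD, n = 2 each). Its fitted log2 difference was -0.0059 for day 7 against day 4 and 0.27 for day 7 against day 0.

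Of 18 other WFDC genes tested, 1 was lower at day 4 than at day 0 (Wfdc16, on 1 and 4 reads), 1 was lower at day 7 than at day 4 and 8 were lower at day 7 than at day 0. The median differences were -0.68, -1.06 and -1.77 in that order, where those of all genes were -0.40, -0.81 and -1.14. Of all genes 29.3% were called lower in that comparison, and 7 of the 8 (all but Wfdc21) had only 2 to 8 reads in all at day 0, with means of 4.06 to 10.2 RPKM, about the receptor background. That count of 8 was 2 after quantile normalization, and 2 or 1 once day 7 library III or IV was left out. The gene lower at day 7 than at day 4 was Wfdc21, a WAP domain gene known from mouse myeloid cells, with 2.54 and 0 RPKM at day 7 against 204 and 144 RPKM at day 4. Its log2 difference was -6.52 ± 0.79 (limma, adjusted p = 0.00188). Wfdc21 was thus low at day 7, where Wfdc17 was high. At day 0 Wfdc21 had 134 and 28.9 RPKM.

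Most of the listed cysteine proteases, which include targets of stefins and cystatins, were higher at day 7. Limma called 8 of 11 higher for day 7 against day 4, with a list median of 2.17, and 8 higher and 1 lower (Ctsw, named after its values were seen) for day 7 against day 0. Of all genes 5.85% were called higher for day 7 against day 4, and 11.3% higher and 29.3% lower for day 7 against day 0. Ctss encodes cathepsin S, which cuts the invariant chain in antigen-presenting cells, and had 3842 and 4057 RPKM at day 7 against 58.8 and 31.0 RPKM at day 4. That is a log2 difference of 6.50 ± 0.47 (limma, adjusted p = 0.000279). Lgmn, which encodes the asparagine endopeptidase legumain, averaged 242.9 ± 19.1 RPKM at day 7, against 8.11 ± 3.62 RPKM at day 4 (SD, n = 2 each), with a log2 difference of 4.80 ± 0.41 (limma, adjusted p = 0.000449). Ctsz averaged 1078 ± 94.6 RPKM at day 7 and 220.0 ± 53.1 RPKM at day 4 (log2 difference 2.31 ± 0.45, limma adjusted p = 0.0146). Ctsb encodes cathepsin B, with 1903 and 1983 RPKM at day 7 against 312 and 592 RPKM at day 4, and missed the threshold (log2 difference 2.17 ± 0.61, limma adjusted p = 0.0528). For day 4 against day 0, Ctsb and Ctsh were called higher, where 3.66% of all genes were. The 8 calls for day 7 against day 4 were 3 after quantile normalization, and 2 once day 7 library III or IV was left out. The 10 macrophage markers, all called higher in that comparison with a median log2 difference of 6.80, moved with these proteases, and their part in it was not tested.

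The summed level of Cstb, Cst3 and the stefin A genes over that of the 11 cysteine proteases was 0.815 and 0.438 on day 0, 0.664 and 0.692 on day 4 and 0.543 and 0.575 on day 7. The day 7 ratios lay below both day 4 ratios, and the day 0 libraries spanned all others. Both sums were highest at day 7, at 4361 and 4829 RPKM for the inhibitors against 514 and 727 RPKM at day 4, and at 8032 and 8401 RPKM for the proteases against 774 and 1051 RPKM at day 4. RNA levels say nothing of enzyme activity.

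Many genes of the granule serine proteases fell after day 4. For day 7 against day 4, limma called 6 of 10 lower, with a median of -3.75, and for day 4 against day 0 it called 1 higher, Prss34, a basophil and mast cell tryptase (log2 difference 5.83 ± 1.33, adjusted p = 0.0455). Of all genes 6.75% were called lower for day 7 against day 4 and 3.66% higher for day 4 against day 0. Elane, neutrophil elastase, which Slpi inhibits, had 0.538 and 0 RPKM at day 7 against 835 and 1119 RPKM at day 4 (log2 difference -9.61 ± 0.96, limma adjusted p = 0.000824). The count of 6 became 3 with quantile normalization. The markers of neutrophils moved the same way, as given above, and their part in it was not tested.

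Among 22 serpins tested, serine protease inhibitors with another fold, limma called 3 higher and 3 lower for day 7 against day 4, with a median of -0.79. Of all genes 5.85% were called higher and 6.75% lower in that comparison, with a median of -0.81. Serpinb1a, which inhibits neutrophil elastase inside cells, had 0 and 2.86 RPKM at day 7 against 227 and 163 RPKM at day 4 (log2 difference -6.62 ± 0.70, adjusted p = 0.00106). In the other direction Serpinb6a had 149.6 and 162 RPKM at day 7 against 8.44 and 3.60 RPKM at day 4 (log2 difference 4.57 ± 0.45, adjusted p = 0.000746). Serpinb9, the inhibitor of granzyme B, was also higher at day 7, with 32.5 and 28.5 RPKM against 3.88 and 3.82 RPKM at day 4. Of 19 other protease inhibitors, limma called 2 higher for day 7 against day 4 (Timp2 and Pebp1) and 2 lower (Reck and Spint2). Timp2, an inhibitor of matrix metalloproteases, had 55.7 and 69.9 RPKM at day 7 against 15.8 and 2.37 RPKM at day 4. No serpin and no other protease inhibitor was called for day 4 against day 0, where 5 and 1 of them had an unadjusted p under 0.05 and limma voom also called 0. Without day 7 library III or without library IV, 4 serpins (1 higher and 3 lower) and 0 of the other inhibitors were called for day 7 against day 4.

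**Figure D5:**
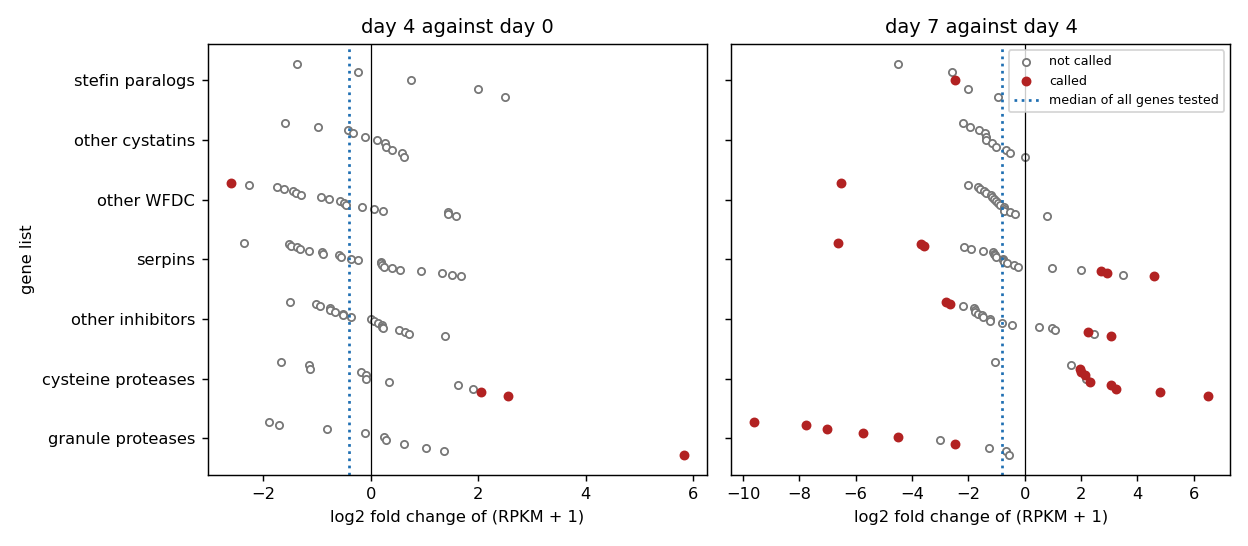
Log2 fold change of (RPKM + 1) for each tested gene of the 7 lists, day 4 against day 0 in one panel and day 7 against day 4 in the other, with red points for genes called by limma, open points for the rest and a dotted line at the median of all genes tested. For day 7 against day 4, 8 of 11 cysteine proteases are red on the right of 0 and 6 of 10 granule serine proteases red on the left.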

How the data were processed

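RNA-seq of 6 libraries was used, 2 each from day 0, day 4 and day 7. The deposited table gives RPKM per gene, in which the authors divided reads by gene length and library size, per the file headers. Per the submitters' processing notes the tools included TopHat2 2.0.13 and SAMtools 1.1, and the build was mm9. How reads were counted, on which annotation and strand, and what became of shared reads is not given in the sources used here. Per the labels' protocols, total RNA was copied with a SMARTer Ultra Low Input kit and libraries were made with Nextera XT.

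RPKM times gene length gave a common total in each library, and each value was a whole multiple of 1 read to within 6.88e-05 reads. Reads per gene were thus read back, with totals over all genes of 157797 to 16149088. Exact 95% intervals are Clopper-Pearson or, for ratios of pooled reads, conditional binomial. Fits used log2(RPKM + 1), which understates folds of low genes, for the 19279 genes with at least 1 RPKM in at least 2 libraries (limma 3.58.1 in R 4.3.3, 3 group means, 3 residual degrees of freedom, mean-variance trend, two-sided, Benjamini-Hochberg over all genes tested). It was tested on simulated data. An exact permutation test of 2 against 2 libraries cannot give a p below 0.333. The 92 rows without a symbol hold none of the genes named.

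The 9 genes, the 7 gene lists and the markers were chosen with earlier results of these data known. Named from each list were genes among its 4 with the highest mean RPKM or its 2 with the smallest adjusted p in a comparison (Ctsw apart), and for likeness the 3 nearest genes averaging 5 RPKM or more. Sequences are from GENCODE M21 and RefSeq (GRCm38.p6), and no coordinates are given in mm9. Alternatives were another pseudocount (0.1), other filters, median ratio scaling, quantile normalization, limma voom on the recovered reads, a replicate block and each library left out. Pooled ratios with a library left out and the marker sum without Bst2 were added after seeing the data.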

Additional observations from a re-analysis of the deposited data

How the results depend on the processing

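The number of genes called for day 4 against day 0 was 1075 (65.6% higher), and became 535 with a pseudocount of 0.1 (79.1% higher), 309 with limma voom on recovered reads (37.5% higher) and 1966 with the replicate block. For day 7 against day 4 it was 2428 (46.4% higher), and became 3996 with a pseudocount of 0.1 (28.8% higher), 978 with quantile normalization and 12788 with voom (18.7% higher). For day 7 against day 0 it was 7832 (27.9% higher), and became 4957 with a filter of 5 RPKM (44.2% higher) and 2141 with quantile normalization (56.6% higher). Leaving out single libraries gave 0 to 3397 genes, 0 to 5186 genes and 1369 to 9599 genes in the same order. Both values of 0 in the first 2 comparisons came without either day 4 library, and 1626 and 1369 genes were called for day 7 against day 0 without day 7 library III and IV. The causes were not tested.

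Quantile normalization moved the median of all genes to -0.04, 0.04 and -0.01, and voom moved it to -1.11, -2.04 and -2.78. Of 336 alternative log2 differences of the 9 inhibitor genes, 285 moved by less than their spread and 51 did not, and 0 called ones changed sign. For Stfa2 and Stfa3 the spread for day 7 against day 0 was 0. The 51 therefore include 7 of 11 alternatives of Stfa2 and 6 of 10 of Stfa3 that stayed at 0. That of Cst3 for day 4 against day 0, which was not called, ran from -0.24 with quantile normalization to 0.93 without day 0 library II. Replicate numbers are shared by 2 pairs of libraries (correlations of 0.0128 and 0.0215), so they were not taken as pairs, and the block gave 2700 and 9692 genes in the other comparisons. Day 0 depth limits each value of the stefin A genes, of Cstb and of Wfdc17 there.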

Other observations

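Genes whose pattern over the 6 libraries was most like that of an inhibitor gene were found by the root mean square distance between centred log2(RPKM + 1) values, among 8098 genes. Likeness was chosen on the same values and says nothing of shared function. For Wfdc17 the nearest were Gngt2 at 0.33, Lgals3bp, a secreted glycoprotein, at 0.51 and Ctss, cathepsin S, at 0.55. For Cst3 they were Fam174a at 0.20, Timm13 at 0.27 and H2-DMa, a chain of the factor that loads peptides on MHC class II, at 0.27. For Slpi they were Vmn1r13 at 0.26, a vomeronasal receptor gene that the background list also holds, Mmp8, the neutrophil collagenase, at 0.29 and Ppp1r42 at 0.34. Cstb had no gene nearer than Rabac1 at 0.97, and Stfa1 none nearer than Arg2 at 0.83. Both distances include the day 0 libraries, where Cstb had 4 and 0 reads and Stfa1 0 and 1. BC100530 was nearest to Tuba8 at 0.43, Cpa3, a mast cell carboxypeptidase, at 0.48 and Tal2 at 0.51. Stfa2l1 was nearest to Ppp1r42 at 0.37, the odorant receptor gene Olfr1112 at 0.43 and Gm3867 at 0.44.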
